A study of Xenopus laevis with 7 samples.

Results

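The amino acid transporter families of the Xenopus laevis gastrula were taken as all transcripts whose human match, assigned by the authors, is a member of the solute carrier families SLC1, SLC3, SLC6, SLC7, SLC36, SLC38 or SLC43. This gave 108 of the 44421 transcripts in the authors' table, matched to 49 human symbols. SLC6 had 35 of them, SLC7 had 30, SLC38 had 17, SLC1 had 15, SLC3 and SLC43 had 4 each and SLC36 had 3. The rule takes whole families, so that it also holds carriers of related small molecules, such as the creatine transporter SLC6A8.

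Messenger RNA of the African clawed frog was sequenced from stage 10.5 embryos, in early gastrulation. The libraries came from 3 samples of dorsal lips, 3 of ventral lips and 1 of whole embryos, all wild type with the background given as Nasco. The dorsal lip contains the Spemann organizer, and the ventral lip the opposing signalling center. The file headers count 3 experiments, each with a dorsal and a ventral library; whole embryos were part of experiment 1, and the libraries of experiments 2 and 3 ran in the same lane. The labels do not say whether the experiments used separate clutches or how many lips were pooled, so that the p-values below reflect just the spread among these libraries, which may be technical.

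Amino acids cross membranes through carriers that differ in their substrates and in what drives them. SLC1, SLC6 and most SLC38 proteins couple uptake to sodium, and some SLC36 proteins couple it to protons. Many SLC7 proteins exchange amino acids and reach the surface only when bound to an SLC3 heavy chain. A gastrula takes up no food and obtains amino acids from the yolk platelets inside its own cells, and several carriers of these families act at lysosomes. The roles given below are known mainly from mammalian cells.

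Recovered reads lay between 26438048 and 34376394 per lip library, against 37999134 in whole embryos, and 1 read over 1 kb of transcript was worth 0.0257 to 0.0369 RPKM. The lips carried the markers of their labels. The 13 organizer transcripts summed to 1250 to 1450 RPKM in dorsal lips and 16.4 to 61.2 RPKM in ventral lips, and the 12 ventral center transcripts to 79.1 to 184 RPKM in dorsal lips and 753 to 1360 RPKM in ventral lips. Experiments differed: 14.1% of all transcripts in dorsal lip 1 and 17.0% in ventral lip 1 were over a factor of 2, on the log2(RPKM + 0.5) scale, from both other lips of their side. The count of transcripts called between dorsal and ventral lips was 777 with the experiment as a block, against 54 without it. The members called in any of these fits are therefore given with and without experiment 1.

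Most members were scarce. Of the 108, 9 were listed at 0 in all 7 libraries, 28 had at most 3 reads in every library and 54 had a mean under 0.1 RPKM. Only 31 transcripts, of 25 human symbols, averaged 1 RPKM or more in the 6 lip libraries and entered the test, as did 37.2% of all transcripts in the table; the other 77 did not enter it. The 9 members that averaged 10 RPKM or more in the 7 libraries were carriers of SLC38, SLC1, SLC7 and SLC36. The 3 most abundant held 44.0% of the summed RPKM of all members, and the 15 most abundant held 87.2%. These 3 were slc38a2, slc1a5.L and slc7a3.L, with lip ranges of 8.33 to 82.2, 37.0 to 53.9 and 26.1 to 57.3 RPKM, so that their order does not hold beyond their spread. Below them, slc38a7.L, slc36a4.L, slc38a9.L and the SLC38A10 transcript Xelaev18046447m ranged from 13.7 to 26.2 RPKM in lips and overlapped one another.

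**Figure D1:**
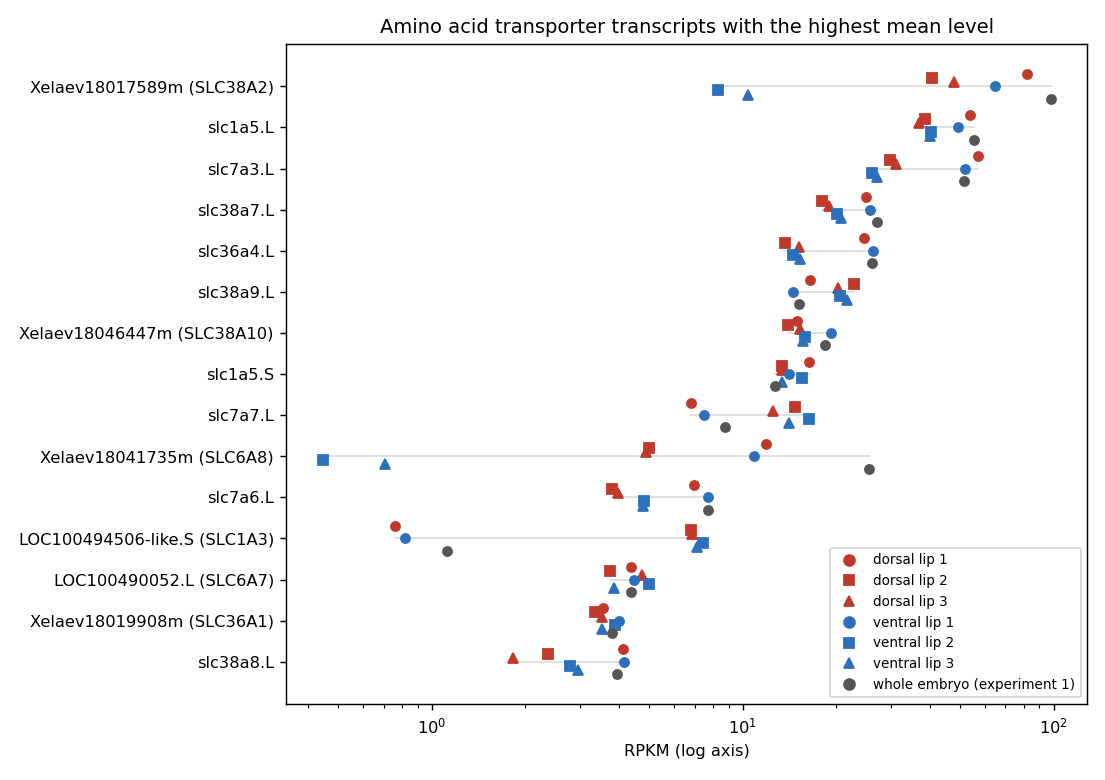
Level of the 15 most abundant amino acid transporter transcripts in each library, in RPKM on a log axis. Each point is a library, red for dorsal lips, blue for ventral lips and grey for whole embryos, with a symbol for each experiment. The values of slc38a2 spread from 8.33 to 82.2 RPKM among lips, whereas those of slc1a5.L stay between 37.0 and 53.9 RPKM.

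Summed over all 108 members, transporter RNA amounted to 372, 267 and 270 RPKM in dorsal lips 1 to 3, 345, 236 and 236 RPKM in ventral lips 1 to 3, and 414 RPKM in whole embryos. Both lips of experiment 1 lay above all lips of experiments 2 and 3, and dorsal lay above ventral within each experiment. Without slc38a2 the sums were 290, 226 and 222 RPKM in dorsal lips 1 to 3 and 280, 228 and 225 RPKM in ventral lips 1 to 3, so that dorsal was the higher in experiment 1 only. The SLC38 family had the largest sum of the role groups in every library. It held 40.1%, 39.2% and 40.9% of the summed RPKM in dorsal lips, and 39.2%, 31.5% and 33.4% in ventral lips. The SLC1 family summed to 59.9 to 73.1 RPKM in dorsal lips and 63.5 to 66.4 RPKM in ventral lips, and the SLC7 light chains, the subunits that carry the amino acid, to 24.8 to 27.2 RPKM in dorsal lips and 26.7 to 29.1 RPKM in ventral lips.

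**Figure D2:**
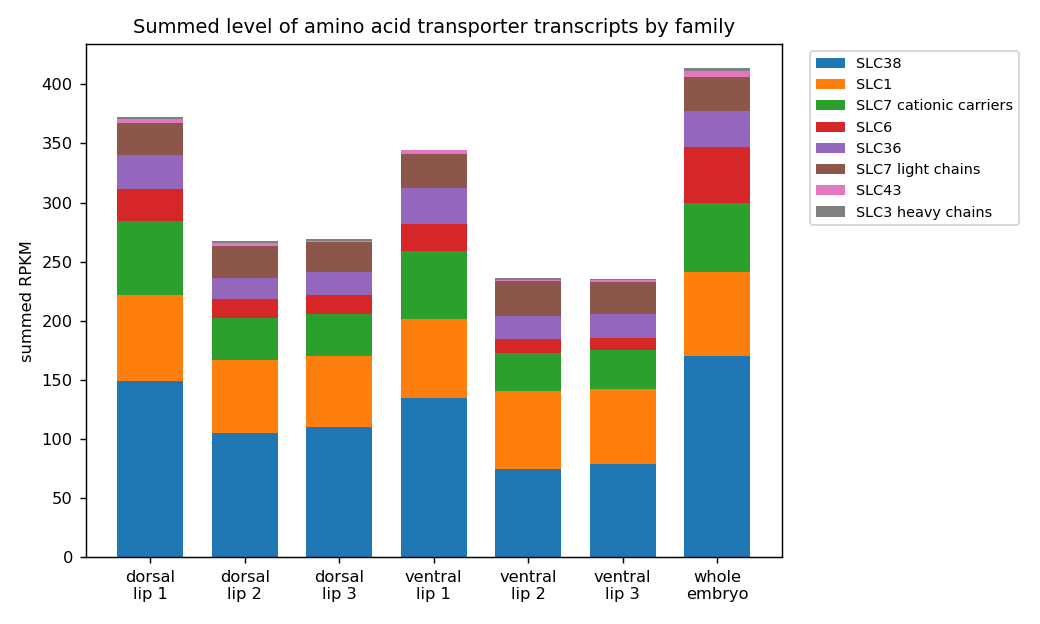
Summed RPKM of the member transcripts by role group in each library, stacked to the total of all 108 members. SLC38 gives the largest piece in every bar, from 74.4 RPKM in ventral lip 2 to 149 RPKM in dorsal lip 1 among lips.

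No transporter transcript passed the test of dorsal against ventral lips. With limma on log2(RPKM + 0.5) over 16514 transcripts, 0 of 31 members had an adjusted p under 0.05. Of all transcripts tested, 0.327% did, and 0.248% did so with the higher level in dorsal lips. An unadjusted p under 0.05 by limma was held by 0 members, where 515 of the 16514 transcripts had one. Voom with limma on the recovered reads called 0 members. The difference was above 0, which means higher in dorsal lips, for 8 members and below 0 for 23, with a median of -0.08 for the members and -0.05 for all transcripts tested. It was under 0.3 in size for 27 of the 31. In the bulk samples used here, fewer cells of a type and less RNA per cell cannot be told apart.

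When the experiment entered the fit as a block, 1 member was called, higher in dorsal lips, where 4.71% of all transcripts were called and 2.37% were called higher in dorsal lips. An unadjusted p under 0.05 by limma with the block was held by 8 members, 4 higher in dorsal and 4 in ventral lips. That count over all transcripts is not given here. In the 4 lips of experiments 2 and 3 alone, 3 members were called, all higher in dorsal lips, where 4.23% of all transcripts were called and 2.85% were called higher in dorsal lips. These 3 were slc38a2, an SLC6A8 transcript and slc7a8.L. Of them, slc38a2 had been picked for its gap between ventral lip 1 and ventral lips 2 and 3, so that its call here is a description.

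**Figure D3:**
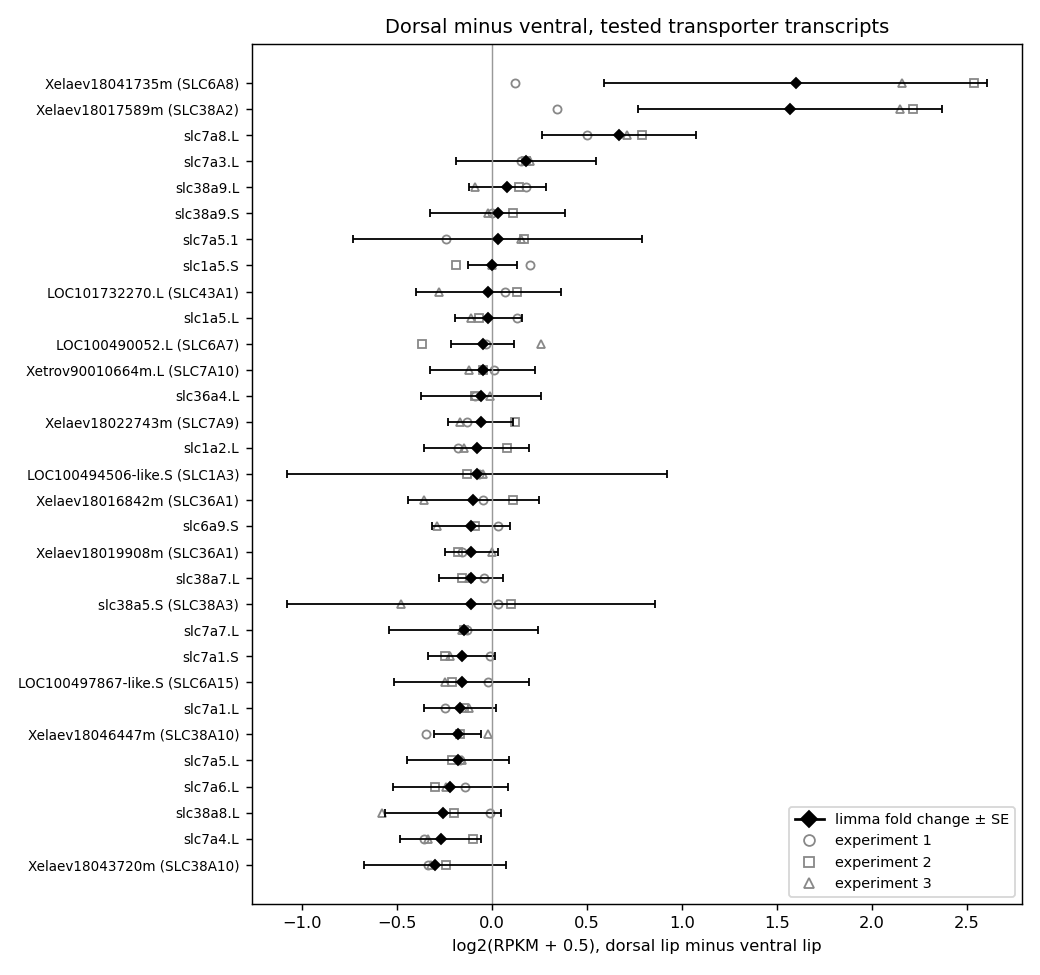
Difference between dorsal and ventral lips on the log2(RPKM + 0.5) scale for the 31 tested members, with diamonds and bars for the limma estimate and its standard error without the block (n = 3 libraries each) and open symbols for the difference within each experiment. slc38a2 and the SLC6A8 transcript stand at 1.57 and 1.60 with wide errors, and 27 of the 31 lie within 0.3 of 0.

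slc38a2 (Xelaev18017589m) encodes a sodium-coupled carrier of small neutral amino acids, and its RNA is known in mammalian cells to increase when amino acids are scarce or the medium is hypertonic. It had 82.2, 40.5 and 47.8 RPKM in dorsal lips 1 to 3, 64.9, 8.33 and 10.4 RPKM in ventral lips 1 to 3, and 98.1 RPKM in whole embryos. Its level was lowest in ventral lips 2 and 3, and the groups overlapped because ventral lip 1 lay above dorsal lips 2 and 3. The means were 56.9 ± 22.3 RPKM in dorsal lips and 27.9 ± 32.1 RPKM in ventral lips (SD, n = 3 each). The log2 difference was 1.57 with a standard error of 0.800 and an adjusted p of 1 by limma, 0.0854 with the block. Within experiments 1, 2 and 3 it was 0.34, 2.22 and 2.15. In experiments 2 and 3 alone it was 2.18 with a standard error of 0.125 and an adjusted p of 0.000191 by limma, and without ventral lip 1 the adjusted p was 0.0544. slc38a2 was picked for its gap between ventral lip 1 and ventral lips 2 and 3. The p-values without ventral lip 1 rest on those same ventral lips and are a description. The second transcript matched to SLC38A2, Xelaev18021125m, stayed between 0.0353 and 0.301 RPKM in lips.

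SLC6A8 is the sodium- and chloride-dependent creatine transporter, and 5 transcripts were matched to it. The most abundant, Xelaev18041735m, had 11.9, 5.01 and 4.88 RPKM in dorsal lips 1 to 3, 10.9, 0.446 and 0.708 RPKM in ventral lips 1 to 3, and 25.5 RPKM in whole embryos. As for slc38a2, ventral lip 1 was close to dorsal lip 1 and ventral lips 2 and 3 were the lowest; dorsal lips 2 and 3 lay between. The log2 difference was 1.60 with a standard error of 1.01 and an adjusted p of 1 by limma, 0.115 with the block. In experiments 2 and 3 alone it was 2.35 with a standard error of 0.158 and an adjusted p of 0.000372 by limma. The within-experiment differences were 0.12, 2.54 and 2.16.

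The transcripts Xelaev18003554m and Xelaev18003553m, also matched to SLC6A8, were low in all 3 ventral lips, experiment 1 included. Xelaev18003554m had 2.09, 1.06 and 0.900 RPKM in dorsal lips 1 to 3, from 192, 89 and 75 reads, and 0.130, 0.0122 and 0.0422 RPKM in ventral lips 1 to 3, from 12, 1 and 3 reads. Xelaev18003553m had 23, 12 and 5 reads in dorsal lips and 2, 0 and 1 reads in ventral lips. Neither reached a mean of 1 RPKM over the lips, and with all transcripts kept their limma adjusted p was 0.188 and 0.660, or 0.0730 and 0.179 with the block. The transcript slc6a8.L, also matched to SLC6A8, followed the experiment and not the side, with 133, 2 and 0 reads in dorsal lips 1 to 3, 150, 2 and 1 reads in ventral lips 1 to 3, and 176 reads in whole embryos. How reads shared by transcripts of the same human match were counted is not given in the sources used here, and their values are uncertain to that degree.

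slc7a8.L encodes a light chain that exchanges neutral amino acids. It had 2.43, 1.12 and 1.18 RPKM in dorsal lips 1 to 3, 1.58, 0.435 and 0.527 RPKM in ventral lips 1 to 3, and 1.45 RPKM in whole embryos. Dorsal was the higher in every experiment, by 0.50, 0.79 and 0.71 on the log2(RPKM + 0.5) scale. The difference over all experiments was 0.67, with a standard error of 0.406 and an adjusted p of 1 by limma without the block, and a standard error of 0.100 and an adjusted p of 0.0339 with it. The blocked call is lost when all transcripts are kept, with a limma adjusted p of 0.137. In experiments 2 and 3 alone the difference was 0.75 with a standard error of 0.121 and an adjusted p of 0.0197 by limma. Its S copy had 0.763, 0.278 and 0.481 RPKM in dorsal lips and 0.576, 0.106 and 0.0308 RPKM in ventral lips, and did not enter the test.

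The heavy chains were scarce. The SLC3A1 chain, which in mammalian kidney and gut pairs with SLC7A9 to take up cystine and basic amino acids, was matched by an L and an S copy named Xetrov90013145m. The L copy had 81, 33 and 56 reads in dorsal lips 1 to 3, against 6, 7 and 7 reads in ventral lips 1 to 3, or 0.454 to 1.02 RPKM against 0.0749 to 0.114 RPKM. The S copy had 23, 23 and 6 reads in dorsal lips and 5, 0 and 1 reads in ventral lips. The groups did not overlap for either copy, though for the S copy this rests on 6 reads in dorsal lip 3 against 5 in ventral lip 1. Of the transcripts that entered the test, 6.90% did not overlap, and the share among low transcripts such as these is not given here. Neither copy entered the test. With all transcripts kept the limma adjusted p was 0.240 for the L copy and 0.835 for the S copy, or 0.134 and 0.211 with the block. The SLC3A2 chain, the partner of most other light chains, reached 0.185, 0.990 and 0.712 RPKM in dorsal lips and 0.165, 0.824 and 0.787 RPKM in ventral lips as slc3a2.S, while slc3a2.L had at most 0.0104 RPKM in any library. The partner light chains slc7a7.L and slc7a6.L stood at 6.81 to 16.3 and 3.81 to 7.73 RPKM in lips.

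**Figure D4:**
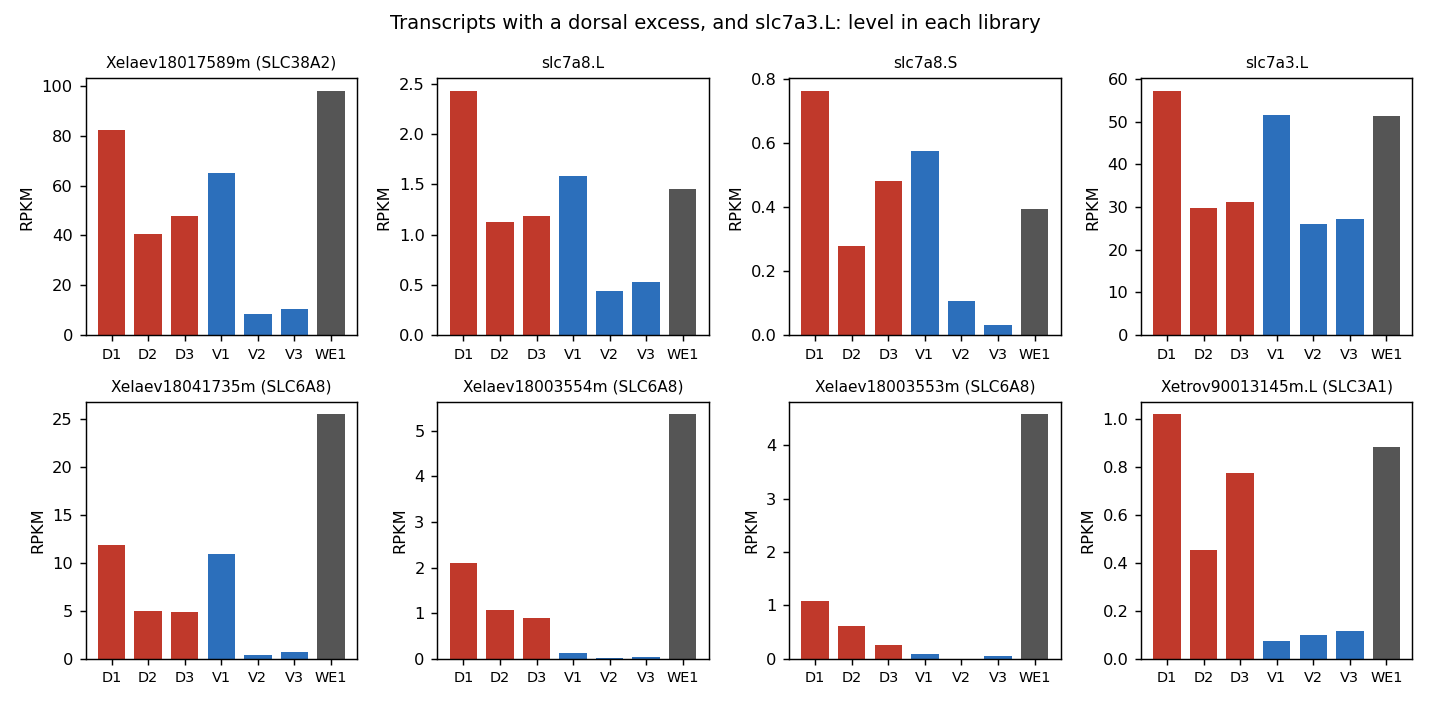
Bars give the RPKM in each library (D, dorsal lip; V, ventral lip; the grey bar, whole embryos; the digit is the experiment) of 7 transcripts with a higher level in dorsal lips of experiments 2 and 3 and of slc7a3.L, each panel on its own linear axis from 0. In ventral lip 1, slc38a2 and Xelaev18041735m stand at 64.9 and 10.9 RPKM, close to dorsal lip 1, while Xelaev18003554m and the L copy of SLC3A1 stand below every dorsal lip.

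The remaining abundant carriers were close between the sides. slc1a5.L, a sodium-dependent carrier of glutamine and other neutral amino acids, had 53.9, 38.6 and 37.0 RPKM in dorsal lips and 49.2, 40.4 and 40.1 RPKM in ventral lips, with a log2 difference of -0.02 and a standard error of 0.177. slc7a3.L, which carries arginine and lysine without a heavy chain, had 57.3, 29.7 and 31.1 RPKM in dorsal lips 1 to 3, 51.7, 26.1 and 27.1 RPKM in ventral lips 1 to 3, and 51.4 RPKM in whole embryos. Dorsal exceeded ventral in each experiment by less than the gap between experiments, and the difference was 0.18 with a standard error of 0.369, a limma adjusted p of 1 and, with the block, 0.0712. In experiments 2 and 3 alone it was 0.19 with a limma adjusted p of 0.202. Of the carriers known from lysosomes, slc38a7.L, which exports glutamine and asparagine, had 18.0 to 24.9 RPKM in dorsal lips and 20.1 to 25.6 RPKM in ventral lips, and slc38a9.L, an arginine sensor upstream of mTORC1, had 16.5 to 22.8 RPKM in dorsal lips and 14.5 to 21.6 RPKM in ventral lips. The SLC36 carriers slc36a4.L and Xelaev18019908m, the latter matched to SLC36A1, also overlapped between the sides.

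Dorsal was the higher in all 3 experiments for 4 members and ventral for 13, where 49.9% of all transcripts had the same order in all 3. The 4 were slc38a2, Xelaev18041735m, slc7a8.L and slc7a3.L. The groups did not overlap for 1 tested member, where 6.90% of all transcripts did not overlap. This was Xelaev18046447m, matched to SLC38A10, with 15, 14 and 15.3 RPKM in dorsal lips and 19.2, 15.9 and 15.6 RPKM in ventral lips, a log2 difference of -0.18 and a standard error of 0.124. Dorsal lip 3 and ventral lip 3 were nearly equal for it.

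The comparison of ventral lip 1 with ventral lips 2 and 3 has 1 library against 2 and no test. Past a factor of 2 from both on the log2(RPKM + 0.5) scale, 6 of 31 members differed, 4 higher and 2 lower in ventral lip 1, where 17.0% of all transcripts did, 5.0% higher and 12.0% lower. The median difference was 0.28 for the members and -0.18 for all transcripts. For dorsal lip 1 against dorsal lips 2 and 3, 2 members were past that limit upward and 2 downward, where 14.1% of all transcripts were past it, 3.94% upward and 10.2% downward. Both lips of experiment 1 were past it in the same direction for 4 members, where 11.7% of all transcripts were.

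Those 4 followed the experiment on both sides. slc7a5.1, a copy of the light chain that brings leucine and other large neutral amino acids into cells, had 2.26, 0.391 and 0.308 RPKM in dorsal lips 1 to 3 and 2.76, 0.292 and 0.231 RPKM in ventral lips 1 to 3. LOC100494506-like.S, matched to the glutamate carrier SLC1A3, had 0.761, 6.80 and 6.86 RPKM in dorsal lips and 0.822, 7.47 and 7.10 RPKM in ventral lips. slc38a5.S, which the authors matched to SLC38A3, had 3, 223 and 160 reads in dorsal lips and 2, 201 and 204 reads in ventral lips. slc7a5.1 was thus high, and the other two low, in both lips of experiment 1. The remaining member of this group was Xelaev18041735m, described above. A second transcript matched to SLC7A5, slc7a5.L, did not pass the limit. It had 2.21, 1.34 and 1.29 RPKM in dorsal lips 1 to 3 and 2.55, 1.62 and 1.51 RPKM in ventral lips 1 to 3. Its differences were 0.58 for dorsal lip 1 and 0.57 for ventral lip 1. slc7a3.L had differences just under the limit, 0.90 for dorsal lip 1 and 0.95 for ventral lip 1, where 1 on this log2 scale is a factor of 2. Like slc38a2, it was picked for the ventral lip 1 comparison in earlier work on these data, so that its values are a description.

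slc38a2 and slc7a8.L passed the limit on the log2(RPKM + 0.5) scale in ventral lip 1 and not in dorsal lip 1, as did 5.29% of all transcripts. For slc7a8.L this rests on the added 0.5 RPKM, since its plain RPKM in dorsal lip 1 was 2.11 times the mean of dorsal lips 2 and 3, and that in ventral lip 1 was 3.28 times the mean of ventral lips 2 and 3. slc38a2 was chosen for this pattern, so that its values are a description: ventral lip 1 had 6.92 times the mean of ventral lips 2 and 3, and dorsal lip 1 had 1.86 times the mean of dorsal lips 2 and 3. On the log2(RPKM + 0.5) scale the differences were 2.74 for ventral lip 1 and 0.89 for dorsal lip 1, against 1.08 and 0.83 for slc7a8.L. slc38a2 made up 18.8% of the summed transporter RPKM in ventral lip 1, against 3.53% and 4.42% in ventral lips 2 and 3.

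**Figure D5:**
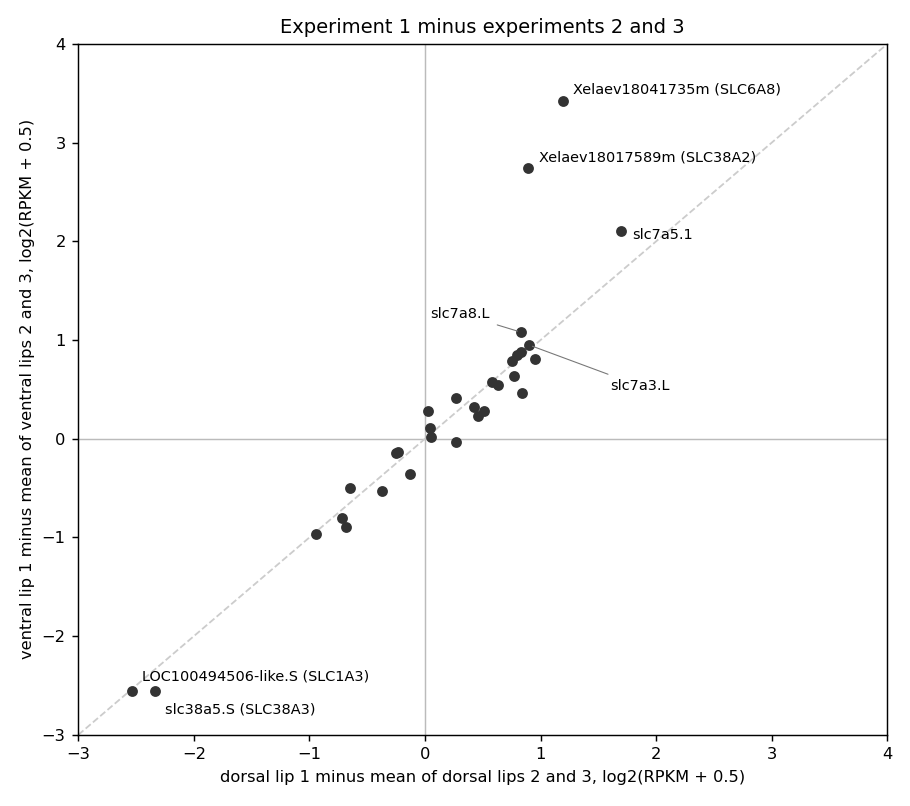
Difference of the experiment 1 lip from the mean of experiments 2 and 3 on the log2(RPKM + 0.5) scale, dorsal lip on the horizontal and ventral lip on the vertical axis, for the 31 tested members. slc38a2 lies at 0.89 and 2.74 and Xelaev18041735m at 1.19 and 3.42, whereas slc7a3.L lies at 0.90 and 0.95.

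Cell type markers also differed between ventral lip 1 and ventral lips 2 and 3. The 12 ventral center transcripts, markers of the lip itself, summed to 1360 RPKM in ventral lip 1 and to 753 and 846 RPKM in ventral lips 2 and 3, with 10 of 12 higher in ventral lip 1 than in both. The share of all transcripts with that order is not given here, so that this count and those below cannot be read against it. The 13 pan-mesoderm transcripts above 0 summed to 1280 RPKM in ventral lip 1, against 645 and 747 RPKM in ventral lips 2 and 3, with 8 of the 9 tested higher in ventral lip 1 than in both. The fgf4 copies did not enter the test and lay near the floor, at 0.147 and 0.0275 RPKM in ventral lip 1 and 0 in ventral lips 2 and 3. In dorsal lips the pan-mesoderm transcripts summed to 1250, 1410 and 1360 RPKM. Endoderm transcripts summed to 142 RPKM in ventral lip 1 and to 116 and 114 RPKM in ventral lips 2 and 3, with 9 of 12 tested higher in ventral lip 1. Past a factor of 2 on the log2(RPKM + 0.5) scale, 6 of these 12 were higher and 1 was lower. Over all transcripts, 5.0% were higher and 12.0% lower. The most abundant, sox17a.L and sox17a.S, were lower in ventral lip 1, at 41.4 and 36.4 RPKM, against 51.2 and 45.6 RPKM in ventral lip 2. gata6.S had 15.6 RPKM in ventral lip 1, against 1.98 and 2.90 RPKM in ventral lips 2 and 3. Organizer transcripts summed to 61.2 RPKM in ventral lip 1 and to 16.4 and 21.3 RPKM in ventral lips 2 and 3, with 10 of 13 higher. These sums lay mostly in frzb.S and frzb.L, at 44.4 and 6.69 RPKM in ventral lip 1. In ventral lip 2 they had 8.92 and 1.51 RPKM, and in ventral lip 3 13.1 and 1.99 RPKM. The chrd and nog transcripts had at most 0.871 RPKM in any ventral lip. Epidermis transcripts summed to 248 RPKM in ventral lip 1 and to 145 and 163 RPKM in ventral lips 2 and 3, with 8 of 10 higher. Neural plate transcripts summed to 417 RPKM in ventral lip 1 and to 1020 and 979 RPKM in ventral lips 2 and 3, with 3 of 7 higher. That lower sum lay mostly in the sox3 transcripts Xelaev18042169m and Xelaev18038842m. They had 229 and 132 RPKM in ventral lip 1, against 585 and 380 RPKM in ventral lip 2 and 561 and 366 RPKM in ventral lip 3. Both were also lower in dorsal lip 1, at 336 and 159 RPKM, than in dorsal lips 2 and 3, at 316 to 536 RPKM for the same transcripts. The part of these cells in the level of slc38a2, SLC6A8 and slc7a8.L was not tested.

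Set against the whole embryo library of the same experiment, the lips have no replicate and no test. Here 31 members averaged 1 RPKM or more in these 3 libraries, a set chosen apart from the 31 of the lip comparison. Of them, 0 were past a factor of 2 above whole embryos in both lips and 3 were below, where 0.647% of all transcripts were past it and 0.440% were below. The 3 were SLC6A8 transcripts. Xelaev18041735m had 11.9 RPKM in dorsal lip 1, 10.9 RPKM in ventral lip 1 and 25.5 RPKM in whole embryos, and Xelaev18003554m had 2.09, 0.130 and 5.36 RPKM in the same libraries. Xelaev18003553m had 1.09 RPKM in dorsal lip 1, 0.0945 RPKM in ventral lip 1 and 4.58 RPKM in whole embryos. slc38a2 had 82.2 RPKM in dorsal lip 1 and 64.9 RPKM in ventral lip 1, against 98.1 RPKM in whole embryos. These 31 members had a median log2 difference from whole embryos of -0.12 in dorsal lip 1 and -0.06 in ventral lip 1, against -0.06 and -0.02 for all transcripts.

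The L and S copies, which descend from the parent species whose genomes joined in this frog, often differed more from each other than the sides did. Among 25 pairs, 11 had a copy that averaged 1 RPKM or more; the L copy was the higher in all 7 libraries in 6 of them and the S copy in 4. In 9 of the 11 the copies were over 2 times apart. slc1a5.L had 3.18 times the level of slc1a5.S, with a range of 2.62 to 4.36 over the libraries, and slc38a9.L had 7.49 times that of slc38a9.S, with a range of 3.97 to 13.6. The slc38a9 ratio was lower in experiment 1, where slc38a9.S stood at 3.43 RPKM in the dorsal lip and 3.42 RPKM in the ventral lip, against 1.52 to 1.86 RPKM in the other lips. Reads shared between copies limit these ratios, since their treatment is not given in the sources used here.

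Lists of genes around amino acid supply are read against the shares of all transcripts called, 0.327% without the block and 4.71% with it. Without the block, a count of 0 in a list of this size lies near that share. An unadjusted p under 0.05 by limma without the block was held by 515 of all 16514 transcripts tested. Of 36 tested transcripts of the starvation response that ATF4 drives, 0 passed limma without the block, at an unadjusted p under 0.05 0 did, and 1 dorsal and 2 ventral passed with it. These were sesn2.L, an inhibitor of mTORC1, with a log2 difference of 0.33 and a blocked adjusted p of 0.0129, and the proline and serine synthesis enzymes aldh18a1.L and psat1.L, at -0.41 and -0.40 with blocked adjusted p of 0.0200 and 0.0359 by limma. In ventral lip 1, 0 of the 36 were past a factor of 2 above ventral lips 2 and 3 and 4 were below, where 5.0% of all transcripts were above and 12.0% below. These counts lie near those shares for a list of this size. Of 40 transcripts of amino acid sensing by mTORC1, 37 of the aminoacyl-tRNA synthetases, which load tRNAs, 24 other amino acid carriers and 5 of the osmotic response, 0 passed limma with or without the block, and 0 had an unadjusted p under 0.05 without it. The transcript sesn2.L, called with the block, was counted under the starvation response and not among the 40. Of the 40 for mTORC1, 1 was past a factor of 2 higher and 9 lower in ventral lip 1 than in ventral lips 2 and 3. For the synthetases these counts were 2 and 1, and for the other carriers 1 and 3. In dorsal lip 1, 2 of the 40 were higher and 7 lower, where 3.94% of all transcripts were higher and 10.2% lower. Of the 5 osmotic response transcripts, 2 were past a factor of 2 higher and 2 lower in ventral lip 1 than in ventral lips 2 and 3, with a median difference of -0.54. The same shares of all transcripts in ventral lip 1 apply to these lists, and a list of 5 is too short to be read against them. The aldose reductase transcript akr1b1.S and the kinase transcript sgk1.L had 1.09 and 1.06, and LOC100489930.L, matched to the water channel AQP3, had -1.66.

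Immediate early and wound response genes, which many cells switch on soon after a stimulus, also differed between experiments. Of 41 tested, 9 were past a factor of 2 higher in ventral lip 1 than in ventral lips 2 and 3 and 0 were lower, where 5.0% of all transcripts were higher and 12.0% lower. junb.L, a transcription factor subunit, had 22.1, 0.496 and 0.369 RPKM in dorsal lips 1 to 3, 19.8, 0.470 and 0.195 RPKM in ventral lips 1 to 3, and 0.252 RPKM in whole embryos. It was therefore high in both lips of experiment 1 and low in the whole embryos of that experiment. The part of this difference between experiments in the transporter values was not tested. Between the sides, 2 of the 41, both higher in ventral lips, passed limma without the block, and 4 dorsal and 7 ventral with it, where 0.327% and 4.71% of all transcripts did. The KLF2 match Xelaev18001123m was lower in dorsal lips, with a log2 difference of -2.32 and an adjusted p of 0.00116 by limma, and the KLF2 match Xelaev18006666m, with -2.76 and 0.0455.

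In the authors' deposited table, the adjusted p of dorsal against ventral, which rests on experiments 2 and 3, was under 0.05 for 8 of the 92 members that have one, and all 8 were higher in dorsal lips, where 3.38% of all transcripts were called and 2.33% were called higher in dorsal lips. They were slc38a2, 3 SLC6A8 transcripts, both slc7a8 copies and both SLC3A1 copies. The smallest were 4.03e-48 for Xelaev18041735m, 1.85e-33 for slc38a2 and 3.21e-25 for Xelaev18003554m in the authors' deposited table. Of these, slc38a2 had been picked for its gap among the ventral lips, as stated above. Its place among the 8, its adjusted p and its ratio below rest on the low ventral lips of experiments 2 and 3. For slc38a2 these values are therefore a description. The authors' deposited table of dorsal transcripts lists 3 members among 315 entries, with a ratio of dorsal to ventral of 8.57 for Xelaev18041735m, 4.71 for slc38a2 and 2.39 for slc7a8.L, and their deposited ventral table lists 0 among 94.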

How the data were processed

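Polyadenylated RNA of dissected lips and whole embryos was sequenced as single-end reads, per the labels' protocols. The authors deposited an RPKM value for each transcript of the JGI 9.1 gene models, per the file headers, with human symbols assigned by protein BLAST. TopHat2 2.09 and DESeq were used, per the submitters' processing notes, which give no role for either. The adjusted p-value deposited by the authors rests on experiments 2 and 3, per the file headers, as does the ratio in the deposited tables of dorsal and ventral transcripts; the deposited injury table gives a ratio of lip to whole embryo. The authors also deposited a score for each transcript, its correlation to chordin or bambi, which covers samples not analysed here. Names were taken from the files.

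Reads were recovered from the steps of the RPKM values, and all 35326 transcripts above 0 gave whole reads within 0.001 reads. They are the smallest whole numbers that fit, so that a factor common to a transcript's 7 values would not be seen. Dorsal and ventral lips were compared with limma 3.58.1 in R 4.3.3 (two-sided, eBayes with a trend). The values were log2(RPKM + 0.5) of the 16514 transcripts that averaged 1 RPKM or more in the 6 lips, with Benjamini-Hochberg adjustment over all of them. Differences on this scale understate the change of low transcripts. The experiment numbers were taken to pair the libraries. The dorsal and ventral library of each experiment deviated together from their group means, with correlations across transcripts of 0.926, 0.881 and 0.819. Between experiments 2 and 3 the crossed pairs gave 0.748 and 0.839, so that the correlations cannot show the pairing of those libraries. Comparisons with 1 library on a side have no test: a transcript was counted when it differed by over 1 on the log2 scale in the same direction from both libraries. Members named are those called with or without the block, the 15 most abundant, those past that limit, their L and S partners, slc38a2, slc7a3 and the heavy chains; others named were chosen after their values were seen. The members and gene lists were chosen with earlier results of these data known. The fit without the block was tested on simulated data that had no difference between experiments. That simulation cannot show how the fit does where experiments differ, as they do here. Alternatives were other pseudocounts, filters, scalings and limits, the block, voom on recovered reads, and leaving out libraries. No sequences or coordinates are used here, and the values of some members are not reported here.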

Additional observations from a re-analysis of the deposited data

How the results depend on the processing

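The count of members called between dorsal and ventral lips was 0, and it was 1 with the replicate block, 3 in experiments 2 and 3 only, and 3 in those experiments with the replicate block, a setting chosen after seeing the data. It was 0 under every other setting run, leaving out each lip library included. Over all transcripts the count was 54. With the replicate block it was 777, in experiments 2 and 3 only it was 698, and with the block in those experiments it was 1528. Without a filter on low values and with the block, also chosen after seeing the data, it was 120, and it ranged from 21 without ventral lip 3 to 139 without ventral lip 1 when 1 library was left out. Without dorsal lip 2, dorsal lip 3 and ventral lip 2 it was 27, 24 and 25. The cause was not tested. The number of members past the limit in ventral lip 1 was 6, against 2 with a mean of at least 5 RPKM, which tests fewer transcripts, and 15 with a limit of 1.5 times; without ventral lip 2 or ventral lip 3 it was 6 and 9. The number past the limit from whole embryo was 3, against 1 with a mean of at least 5 RPKM.

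Of 296 values of single transcripts under these settings, 7 came past the threshold and 289 kept their side of it; 33 of these changed sign within 1 standard error of 0. The 7 belong to slc38a2, Xelaev18041735m and slc7a8.L. With median-ratio scaling 10 members were above 0 in place of 8, with medians of -0.05 for the members and -0.01 for all transcripts. Depth limits the 28 members with at most 3 reads in every library, for which no difference was detectable, and recovered reads are not independent molecules. The block changed no other member's call.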

Other observations

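Among members that did not enter the test, some had dorsal and ventral values that did not overlap. The share of such transcripts among all that did not enter the test is not given here. Besides the SLC3A1 copies and the SLC6A8 transcripts Xelaev18003553m and Xelaev18003554m, dorsal lay above ventral for slc1a7-like.S and for LOC100492029.S, matched to the GABA carrier SLC6A13. Ventral lay above dorsal for Xelaev18024590m, matched to the glycine carrier SLC6A5, and for LOC101735172.1, matched to the large neutral amino acid carrier SLC43A2.

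The authors' deposited table of transcripts higher in lips than in whole embryos holds 4 members among 734 entries. They are Xelaev18007486m, matched to the serotonin carrier SLC6A4, slc1a3.L, slc6a7.S and slc7a2-like.L, with at most 7, 26, 6 and 8 reads in any library. The deposited correlations to bambi, a ventral center gene, were highest for slc7a4.L at 0.745 and slc7a8.L at 0.701 in the authors' deposited table. slc7a8.L had -0.226 to chordin, an organizer gene, in that deposited table. slc7a4.L had 1.53, 1.38 and 1.01 RPKM in dorsal lips and 2.10, 1.51 and 1.41 RPKM in ventral lips, with a limma adjusted p of 1. slc38a2 had 0.366 to chordin and 0.0984 to bambi in the authors' deposited table, which covers samples not analysed here.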
